A study of Mus musculus with 11 samples.

Results

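The transcripts of 39 lysosome and autophagy genes were followed in activated mouse CD8+ T cells given a lipid-cleaving enzyme or a phospholipid. The genes were taken by name from a list and make up 39 of the 25562 gene symbols in the deposited expression table. They encode lysosomal proteases, glycosidases, lipid enzymes, membrane proteins, the ATG8 proteins of the autophagosome with their conjugation machinery, regulators of autophagy, and the transcription factor Tfeb. The table holds 11 libraries in 3 groups. In 4 AOAH libraries the cells received ethanol and, by the treatment label afterwards, 10 µg/mL of recombinant human acyloxyacyl hydrolase. This enzyme is a lipase known for removing acyl chains from lipopolysaccharide and phospholipids. In 3 PC libraries the cells received 60 µM PC16:0-20:4, a phosphatidylcholine with palmitic and arachidonic acid, and afterwards a protein buffer with 10% glycerol. In 4 vehicle libraries they received ethanol and the buffer with 10% glycerol. All cells were CD8+ T cells isolated with a kit from the spleens of C57BL/6 mice, pretreated for 22 h and then activated for 24 h with 1 µg/mL anti-CD3 and 0.5 µg/mL anti-CD28. No glycerol share is labelled for the AOAH libraries, so AOAH and its buffer cannot be told apart. The labels also place AOAH both in the pretreatment and in the activation step, name both coated plates and beads, and give medium both with and without interleukin-2.

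Lysosomes are acidic organelles in which proteases, glycosidases and lipases break down material brought in by endocytosis or autophagy. In autophagy, a kinase complex and a lipid kinase complex start a membrane sac, small ubiquitin-like ATG8 proteins are attached to its lipids, and the closed vesicle fuses with a lysosome. Tfeb and its relatives drive many of these genes through a short promoter motif, and in T cells the pathway also handles receptor turnover and the nutrient changes of activation.

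The libraries listed 11423 to 11739 genes at 1 TPM or more, where TPM is a gene's length-corrected share of all transcripts in a library, scaled to the same total. Depth is unknown, because TPM does not keep it. The labels do not tie the libraries to different animals or cultures, and the spread behind the p-values below may therefore be technical. The CD8+ identity was checked with 8 markers: Cd8a lay at 331 to 446 TPM and Cd8b1 at 293 to 416 TPM in all 11 libraries. Of 14 macrophage and monocyte markers in the table, Cd68 and Lyz2 were the ones that passed 1 TPM in any library, and the 14 together summed to 4.53 to 5.07 TPM in AOAH, 6.09 to 7.58 TPM in PC and 5.13 to 8.71 TPM in vehicle libraries. The defining macrophage genes Adgre1, Fcgr1 and C1qa were at 0 in 8, 9 and 10 of the 11 libraries. B cell markers summed to 131 to 140.2 TPM in AOAH, 167 to 173 TPM in PC and 151 to 157 TPM in vehicle libraries, nearly all of it Ighm. Dendritic cell markers, mostly Cd74, summed to 20.6 to 27.6 TPM in AOAH, 23.4 to 25.3 TPM in PC and 25.3 to 29.1 TPM in vehicle libraries.

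Of the 39 genes, 37 were at 1 TPM or more in every library and could be tested. Ctsh, an aminopeptidase cathepsin, stayed between 0 and 0.69 TPM, and Wipi1, a lipid-binding autophagy protein, between 0 and 0.18 TPM, and neither was tested. Together the 39 genes held 1618 to 1656 TPM in AOAH, 1864 to 1936 TPM in PC and 1744 to 1766 TPM in vehicle libraries. The 3 ranges did not overlap, with PC libraries highest and AOAH libraries lowest. Laptm5 was the largest single part of these sums, with means of 287, 411 and 323 TPM in turn. In vehicle libraries the level per gene spanned more than 2 orders of magnitude, as the plot of levels in every library shows. Laptm5, a lysosomal membrane protein of blood cells that promotes turnover of the T cell receptor, was highest at 323 ± 11.7 TPM (SD, n = 4). Becn1, a subunit of the lipid kinase complex, followed at 159 ± 5.20 TPM, then the saposin precursor Psap at 136 ± 2.59 TPM, the aspartic protease Ctsd at 128 ± 1.76 TPM and the ATG8 protein Gabarap at 117 ± 2.29 TPM. The ranges of these 5 genes over the vehicle libraries did not overlap. The next neighbours whose ranges did overlap were Ctsc, Ctsb and Ctsa, 3 cathepsins at 62.6, 59.4 and 55.8 TPM. At the low end stood Atg14 at 3.30 ± 0.228 TPM and Map1lc3a at 2.30 ± 0.360 TPM. Among the 37 tested genes the ratio of the highest to the lowest of the 11 libraries was smallest for Lamp1, at 1.08, and largest for Map1lc3a, at 3.19.

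**Figure D1:**
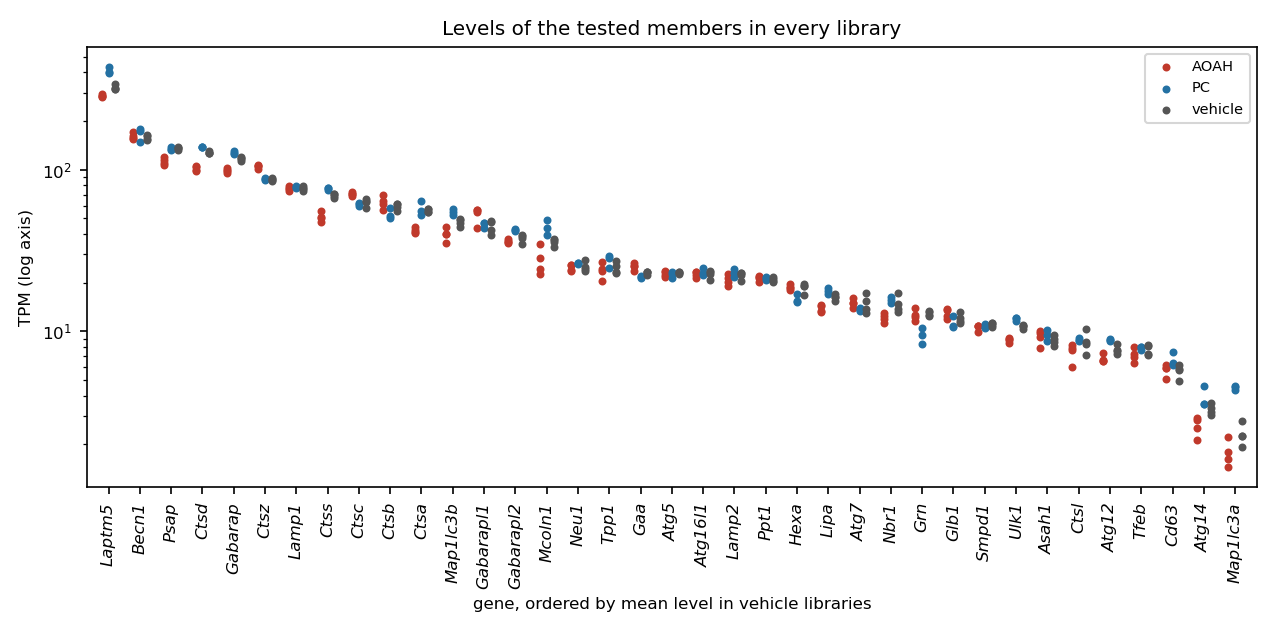
TPM on a log axis for the 37 tested genes, ordered by their mean in vehicle libraries; each point is 1 library, with AOAH (n = 4), PC (n = 3) and vehicle (n = 4) side by side. Laptm5 is highest in all groups, and the points of the 3 groups keep to separate ranges in Laptm5, Ctsd, Ctss, Gabarap and Ulk1, for example.

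RefSeq promoter sequence (mouse build GRCm38.p6, 250 bases before to 50 bases after the start) matched 32 of the 39 genes by symbol, in 37 windows of 300 bases. The deposited tables were made on mm39, so the positions below are those of the RefSeq build. Windows were searched for CACGTG, the core E-box, and for TCACGTGA, the motif bound by Tfeb and its relatives, which contains CACGTG. Both motifs read the same on both strands. CACGTG stood in 10 of the 37 windows (27.0%), against 7.15% of 32851 windows of the same length from all genes. TCACGTGA stood in 3 of the 37 windows (8.11%), against 0.974% of all windows. Among 155 windows of other lysosome and autophagy genes listed further on, the shares were 18.1% for CACGTG and 7.1% for TCACGTGA. The 3 windows belonged to Ctsd, the protease cathepsin D, Ctsa, a serine carboxypeptidase that stabilises lysosomal neuraminidase, and Mcoln1, the lysosomal calcium channel. These 3 stretches are shown because all 3 genes were called in a vehicle comparison in the tests that follow. All 3 were lower with AOAH, and Ctsd was also higher with PC. The capitals mark TCACGTGA, and each stretch is printed in the direction of its gene. In Ctsd (chr7:142387883-142387962, minus strand) the motif began 99 bases upstream of the start, in Ctsa (chr2:164833724-164833772, plus strand) 13 bases upstream, with another copy past the start, and in Mcoln1 (chr8:3500437-3500516, plus strand) 46 bases upstream.
Ctsd: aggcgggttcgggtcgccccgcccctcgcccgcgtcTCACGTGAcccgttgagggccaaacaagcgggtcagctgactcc
Ctsa: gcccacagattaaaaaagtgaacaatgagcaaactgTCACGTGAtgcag
Mcoln1: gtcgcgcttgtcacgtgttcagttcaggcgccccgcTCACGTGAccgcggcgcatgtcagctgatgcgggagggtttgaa
CACGTG stood in the promoters of 3 of 10 matched genes that were lower with AOAH (30.0%) and of 7 of 19 that were not called (36.8%). Lamp1, which was not called in any comparison, held 4 copies of CACGTG. A motif match is a description of these letters, not a binding site.

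With AOAH, 10 of the 37 tested genes were lower than in vehicle libraries and 2 were higher. The genes that fell included Ctsa, Ctsd and Ctss among the proteases, Psap and Lipa among the lipid genes, Laptm5 and Mcoln1 in the membrane, Gabarap and Map1lc3b among the ATG8 genes, and the initiating kinase Ulk1. Those that rose were the proteases Ctsc and Ctsz. The differences were small, between -0.44 and 0.27 in log2(TPM + 1) among the called genes. Calls were made with limma at a Benjamini-Hochberg adjusted p under 0.05 over 11561 genes. The 10 lower genes are 27.0% of the tested members, against 12.1% of all genes called lower, and the 2 higher genes are 5.41%, against 13.1% of all genes called higher. In either direction 32.4% of the members were called, against 25.2% of all genes. The members' median difference was -0.06, against 0.01 over all genes. Every called gene had the same sign in all 4 same-batch pairs. Where the groups did not overlap, as in all called genes but Mcoln1, no pairing could have come out otherwise. In bulk RNA, fewer cells of a type and less RNA per cell cannot be told apart. The CD8 T cell markers moved too, with 6 of 8 lower and a summed level of 2268 to 2319 TPM in AOAH against 2537 to 2561 TPM in vehicle libraries. Some markers listed for other cell types were lower as well, with a log2 difference of -0.18 for Ighm (adjusted p = 0.00261, limma). The class II genes H2-Ab1 and H2-Aa, at 1.18 and 1.26 TPM with AOAH against 2.39 and 2.45 TPM with vehicle, differed by -0.66 and -0.60 (adjusted p = 0.0124 and 0.0140, limma). The other tested ones were not called: Cd79b, Cd74 and Cd68 differed by -0.10, -0.13 and -0.11, and Zbtb46 and Cd40lg by 0.12 and 0.26. The part of these markers in the members' differences was not tested.

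Among the proteases with AOAH, 3 fell, 2 rose and 3 were not called. Ctsa had 41.2, 44.4, 40.6 and 42.5 TPM in AOAH libraries 1 to 4, against 56.8, 54.4, 54.8 and 57.3 TPM in vehicle libraries 1 to 4. All AOAH libraries lay below all vehicle libraries, and the log2 difference was -0.40 ± 0.0381 (SE; limma adjusted p = 0.000161). Ctsd, whose promoter is printed above beside that of Ctsa, had 104, 98.8, 106 and 100.2 TPM with AOAH, against 126, 130.2, 127 and 127 TPM with vehicle. Again the groups did not overlap, with a log2 difference of -0.32 ± 0.0294 and the lowest p of the members (adjusted p = 0.000138, limma). Ctss, a cysteine protease known for trimming the invariant chain in antigen-presenting cells, had 55.4, 50.1, 47.3 and 51.1 TPM in AOAH libraries and 66.4, 71.1, 68.6 and 70.9 TPM in vehicle libraries. Its fall was the largest of the called members, at -0.44 ± 0.0490 with no overlap (adjusted p = 0.000371, limma). Ctsz, a carboxypeptidase of the same cysteine protease family, went the other way, with 106, 101, 105 and 106 TPM with AOAH and 86.4, 88.3, 85.1 and 87.4 TPM with vehicle. Every AOAH library was above every vehicle library, and the log2 difference was 0.27 ± 0.0279 (adjusted p = 0.000250, limma). Ctsc, the dipeptidyl peptidase that activates granzymes in killer cells, had 70.6, 72.4, 70.9 and 68.6 TPM with AOAH and 65.5, 58.2, 63.8 and 63.1 TPM with vehicle. The groups were apart here as well, at 0.17 ± 0.0405 (adjusted p = 0.0142, limma). Ctsb, Ctsl and Tpp1 had log2 differences of 0.08, -0.19 and -0.05 and were not called. Summed over the 9 proteases, the level was 455 to 475 TPM in AOAH libraries and 491 to 498 TPM in vehicle libraries.

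None of the 4 glycosidases Hexa, Neu1, Glb1 and Gaa, which remove sugars from glycolipids, glycoproteins or glycogen, was called with AOAH, and their log2 differences ran from -0.02 to 0.12. Gaa, the glycogen-splitting enzyme, passed the threshold without AOAH library 2 (adjusted p = 0.0397, limma). Of the 6 lipid enzymes and cofactors 2 fell. Psap had 114, 107, 119 and 111 TPM with AOAH, against 132, 136, 137 and 138 TPM with vehicle. All AOAH libraries were lower, by -0.27 ± 0.0358 on the log2 scale (adjusted p = 0.000939, limma). Lipa, the acid lipase that frees fatty acids from cholesteryl esters and triglycerides, had 13.3, 14.5, 14.3 and 13.2 TPM with AOAH and 17.0, 15.3, 16.2 and 16.2 TPM with vehicle. The groups did not overlap and differed by -0.22 ± 0.0521 (adjusted p = 0.0158, limma), which no longer passed with batch as a block (adjusted p = 0.0588). Asah1, Smpd1, Ppt1 and Grn had differences of 0.06, -0.06, 0.03 and -0.03 and were not called.

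In the lysosomal membrane 2 of 5 genes fell with AOAH. Laptm5 had 282, 284, 287 and 294 TPM with AOAH and 340.2, 315, 320.5 and 317 TPM with vehicle. The AOAH libraries were all lower, by -0.17 ± 0.0288 on the log2 scale (adjusted p = 0.00291, limma). Mcoln1, whose promoter is printed above, had 34.6, 22.6, 28.4 and 24.5 TPM with AOAH and 37.1, 37.0, 35.8 and 33.1 TPM with vehicle. AOAH library 1 lay inside the vehicle range and the other 3 below it, and the difference of -0.38 ± 0.116 passed narrowly (adjusted p = 0.0395, limma). That call was lost when AOAH library 2, 3 or 4 or any vehicle library was left out, at adjusted p between 0.0573 and 0.101, and without a filter on low values (adjusted p = 0.0915). Lamp1 and Lamp2, the main glycoproteins lining the lysosomal membrane, were not called. Lamp1 had 73.6, 78.8, 76.9 and 75.6 TPM with AOAH and 76.4, 79.3, 76.8 and 73.9 TPM with vehicle, with overlapping groups and a difference of -0.01 ± 0.0334 (adjusted p = 0.901, limma). Lamp2 had 19.0, 22.7, 21.3 and 20.1 TPM with AOAH and 23.0, 22.3, 20.5 and 23.0 TPM with vehicle. The groups overlapped and the difference was -0.09 ± 0.0625 (adjusted p = 0.314, limma). Cd63, a tetraspanin of late endosomes and lysosomes, had a difference of 0.03 and was not called.

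**Figure D2:**
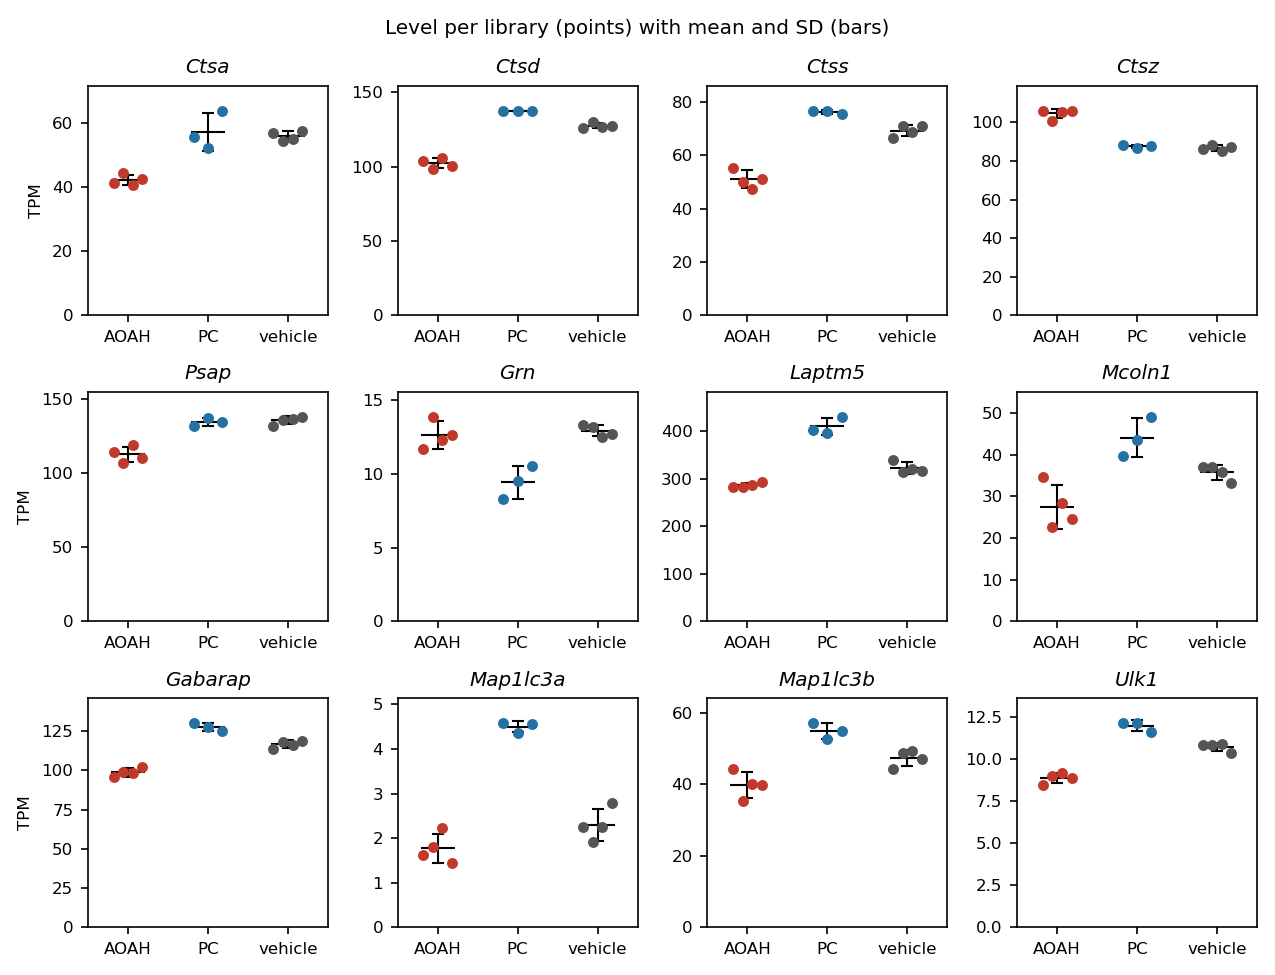
TPM per library (points, linear axes from 0) with the group mean and SD (bars) for 12 called genes, in AOAH (n = 4), PC (n = 3) and vehicle (n = 4) libraries. Ctsd, Ctss, Laptm5 and Gabarap show AOAH below and PC above vehicle, Ctsz is high in AOAH alone, and Grn is low and Map1lc3a high in PC alone.

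Of the 5 ATG8 genes, whose products coat the autophagosome membrane, 2 fell with AOAH. Gabarap had 95.6, 98.9, 98.3 and 102 TPM with AOAH, against 114, 118, 116 and 119 TPM with vehicle. Every AOAH library was below every vehicle library, by -0.24 ± 0.0293 (adjusted p = 0.000603, limma). Map1lc3b, which encodes the LC3 protein most used to count autophagosomes, had 44.3, 35.3, 40.0 and 40.0 TPM with AOAH and 44.4, 48.9, 49.3 and 47.1 TPM with vehicle. AOAH library 1 came just under the lowest vehicle library, and the difference was -0.25 ± 0.0660 (adjusted p = 0.0241, limma). With a batch block it missed the threshold (adjusted p = 0.0689), and it also did so when AOAH library 4 or vehicle library 2, 3 or 4 was left out (adjusted p between 0.0521 and 0.0644) or no filter was set (adjusted p = 0.0587). Map1lc3a had 1.62, 1.80, 2.22 and 1.44 TPM with AOAH and 2.24, 1.92, 2.26 and 2.79 TPM with vehicle. These ranges overlapped, at -0.26 ± 0.120 (adjusted p = 0.154, limma). Gabarapl2 differed by -0.06 and was not called. Gabarapl1, with 43.5, 54.7, 56.4 and 55.9 TPM in AOAH libraries and 47.4, 39.7, 42.4 and 47.8 TPM in vehicle libraries, was also not called (0.24 ± 0.0927; adjusted p = 0.0931, limma). AOAH library 1 alone stood in the vehicle range, and without it the difference was 0.33 (adjusted p = 0.0118, limma).

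The 4 genes that attach ATG8 proteins to lipid, Atg5, Atg7, Atg12 and Atg16l1, were not called with AOAH, with log2 differences from -0.16 to 0.02. Among the starters of autophagy, Ulk1, the kinase at the top of the cascade, had 8.48, 9.01, 9.14 and 8.89 TPM with AOAH and 10.8, 10.8, 10.9 and 10.4 TPM with vehicle. The groups did not overlap, and Ulk1 fell by 0.25 ± 0.0486 on the log2 scale (adjusted p = 0.00621, limma). Atg14 and Becn1, subunits of the lipid kinase complex, differed by -0.26 and 0.03, and the cargo receptor Nbr1 by -0.26 (adjusted p = 0.0747, 0.660 and 0.0524, limma). Nbr1 passed without vehicle library 2 (adjusted p = 0.0394, limma). Tfeb itself had 7.29, 6.36, 6.99 and 8.05 TPM with AOAH and 8.07, 7.22, 8.18 and 7.11 TPM with vehicle. Its groups overlapped, with a difference of -0.08 ± 0.0791 (adjusted p = 0.487, limma).

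**Figure D3:**
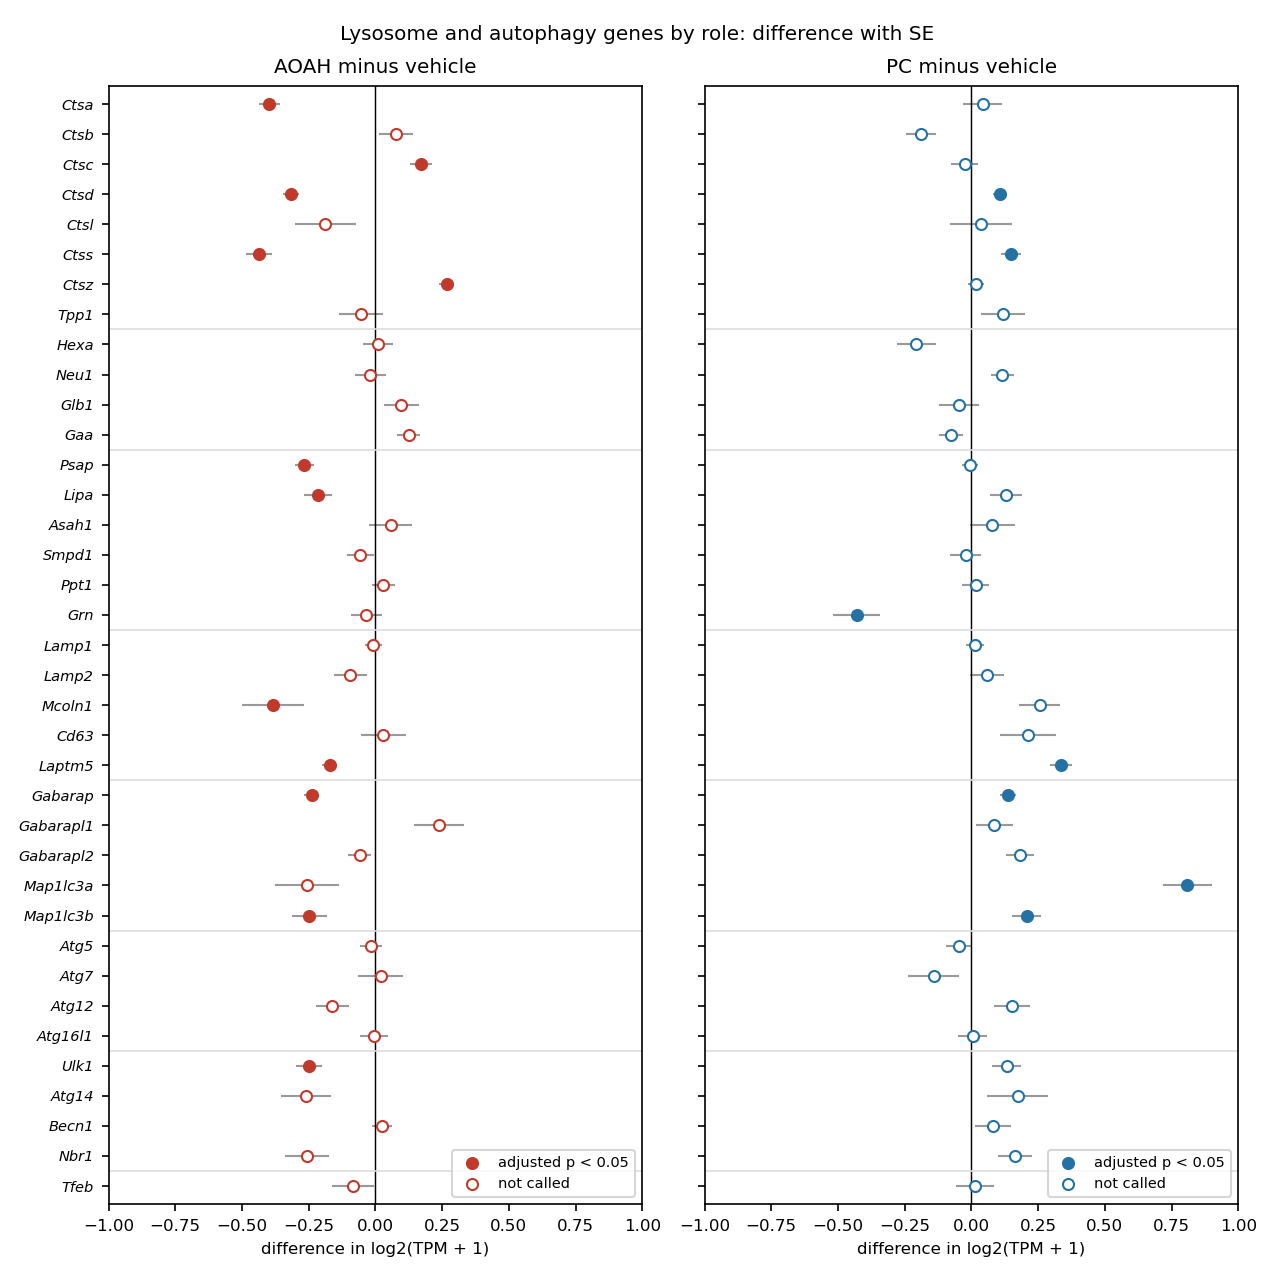
Difference in log2(TPM + 1) with its SE for the 37 tested genes, grouped by role, for AOAH minus vehicle (left, n = 4 and 4) and PC minus vehicle (right, n = 3 and 3); filled points passed an adjusted p of 0.05 in limma. On the left 10 filled points lie below 0 and 2 above, on the right 6 lie above 0 and 1 below, and Lamp1 sits near 0 in both.

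With PC, 6 of the 37 tested genes were higher than in vehicle libraries 1 to 3 and 1 was lower. Map1lc3a and Laptm5 showed the largest rises, Gabarap, Map1lc3b, Ctss and Ctsd rose by smaller amounts, and Grn, the lysosomal and secreted granulin precursor, fell. The share called in either direction was 18.9%, near the 19.5% of all 11628 genes tested, so the number of calls does not set these genes apart. By direction 16.2% of the members were higher, against 8.27% of all genes, and 2.7% were lower, against 11.2% of all genes. The members' median log2 difference was 0.08, against -0.01 over all genes. Of the 7 calls, 3 were left with batch as a block and 2, Map1lc3a and Laptm5, without a filter on low values. The number of members called, genes that newly passed included, was 4, 3, 2 and 3 without PC library 1, PC library 2, vehicle library 1 and vehicle library 3. Both treatments were compared with the same vehicle libraries, so these values and those for AOAH are not independent. The CD8 T cell markers summed to 2772 to 2870 TPM in PC and 2537 to 2561 TPM in vehicle libraries, with 7 of 8 called higher and 1 lower. Ighm was higher by 0.18 and Cd40lg, listed for CD4 T cells, by 0.65 (adjusted p = 0.00770 and 0.0238, limma). The other tested B cell marker, Cd79b, went the other way at -0.33 and was not called. The tested dendritic cell markers, at -0.28 to 0.18, and macrophage and monocyte markers, at -0.03 and 0.48, were not called either. The part of these markers was not tested.

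Map1lc3a, an LC3 isoform at low level in these cells, had 4.59, 4.35 and 4.55 TPM in PC libraries 1 to 3 and 2.24, 1.92 and 2.26 TPM in vehicle libraries 1 to 3. All PC libraries were above all vehicle libraries, vehicle library 4 at 2.79 TPM included. The log2 difference was 0.81 ± 0.0911 (adjusted p = 0.00210, limma), the largest of all members against vehicle, and the call held under every alternative that tested it. Map1lc3b had 57.3, 52.6 and 55.0 TPM with PC and 44.4, 48.9 and 49.3 TPM with vehicle, a gap with no overlap of 0.21 ± 0.0554 (adjusted p = 0.0417, limma). It passed in no fit that left out 1 library (adjusted p between 0.0592 and 0.118) and not with batch as a block (adjusted p = 0.09997). Gabarap had 131, 127 and 125 TPM with PC, against 114, 118 and 116 TPM with vehicle. The groups were apart by 0.14 ± 0.0304 (adjusted p = 0.0225, limma), and the block gave an adjusted p of 0.0624. Without PC library 1, PC library 2, vehicle library 1 or vehicle library 3 its adjusted p was 0.0643 to 0.0779. Gabarapl1 and Gabarapl2 differed by 0.09 and 0.18 and were not called, although Gabarapl2 passed without vehicle library 2 (adjusted p = 0.0401, limma). Summed over the 5 ATG8 genes, the level was 273 to 279 TPM with PC, 222 to 235 TPM with AOAH and 245 to 256 TPM with vehicle, so that each group kept to its own range.

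Laptm5 had 403, 398 and 431 TPM with PC, against 340.2, 315 and 320.5 TPM with vehicle. Its lowest PC library lay well above the highest vehicle library, and the log2 difference was 0.34 ± 0.0421 (adjusted p = 0.00288, limma), a call that held under every alternative run. Mcoln1 had 39.7, 43.5 and 49.1 TPM with PC and 37.1, 37.0 and 35.8 TPM with vehicle. The groups did not overlap, but the difference of 0.26 ± 0.0755 missed the threshold (adjusted p = 0.0569, limma), and it passed without PC library 1 (adjusted p = 0.0263). Lamp1, with 76.7, 78.3 and 79.6 TPM with PC and 76.4, 79.3 and 76.8 TPM with vehicle, overlapped and differed by 0.01 ± 0.0333 (adjusted p = 0.825, limma). Lamp2 had 22.9, 24.2 and 21.7 TPM with PC and 23.0, 22.3 and 20.5 TPM with vehicle. It too overlapped, at 0.06 ± 0.0644 (adjusted p = 0.571, limma). Cd63 differed by 0.21 and was not called.

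Of the 8 tested proteases 2 rose with PC. Ctsd had 138, 138 and 137 TPM with PC and 126, 130.2 and 127 TPM with vehicle. The PC libraries lay within 1 TPM of each other and above all vehicle libraries, by 0.11 ± 0.0265 on the log2 scale (adjusted p = 0.0318, limma). Ctss had 76.6, 76.7 and 75.4 TPM with PC and 66.4, 71.1 and 68.6 TPM with vehicle, again with no overlap, at 0.15 ± 0.0366 (adjusted p = 0.0311, limma). With batch as a block Ctsd and Ctss had adjusted p of 0.0787 and 0.0693, and each passed in only 1 of the 6 fits that left out a library, the one without vehicle library 2 (adjusted p of 0.0750 to 0.102 in the other 5). In 1 fit over all 11 libraries Ctss missed it as well (adjusted p = 0.0575). Ctsa and Psap, which were lower with AOAH, differed by 0.04 and -0.01 with PC. Ctsz and Ctsc, which were higher with AOAH, differed by 0.02 and -0.03 with PC. Ctsb differed by -0.19 and was not called (adjusted p = 0.0598, limma), but passed without PC library 3 (adjusted p = 0.0238).

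Grn had 8.3, 9.5 and 10.5 TPM with PC and 13.3, 13.2 and 12.5 TPM with vehicle. All PC libraries were below all vehicle libraries, and Grn fell by 0.43 ± 0.0881 on the log2 scale (adjusted p = 0.0170, limma). Without PC library 2 or vehicle library 1 the adjusted p was 0.0509 and 0.0610. None of the 4 glycosidases was called with PC, with log2 differences from -0.21 for Hexa to 0.12 for Neu1, and neither was Lipa at 0.13. The conjugation genes ranged from -0.14 to 0.15 and were not called. The same held for Ulk1, Atg14, Nbr1 and Becn1, at 0.13, 0.17, 0.16 and 0.08, although Becn1 passed without PC library 2 (adjusted p = 0.0476, limma). Ulk1 had 12.2, 12.2 and 11.6 TPM with PC, above the 10.8, 10.8 and 10.9 TPM of vehicle (adjusted p = 0.142, limma). Tfeb had 8.02, 7.95 and 7.70 TPM with PC and 8.07, 7.22 and 8.18 TPM with vehicle. Its PC values fell inside the vehicle range, and the difference was 0.01 ± 0.0715 (adjusted p = 0.927, limma).

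A direct comparison of AOAH with PC, which uses no vehicle library, tested whether the genes differed between the treatments. Of the 37 tested genes 15 were lower and 6 higher with AOAH than with PC. The share called was 56.8%, against 45.8% of all 11596 genes, with 40.5% lower against 21.5% of all genes and 16.2% higher against 24.3% of all genes. The members' median log2 difference was -0.14, against 0.00 over all genes. Of the CD8 T cell markers 7 of 8 were lower and 1 higher, with a median of -0.33. Ighm differed by -0.34 (adjusted p = 0.000101, limma), while the other tested B cell marker, Cd79b, differed by 0.19 and was not called. Cd68 at -0.19, Cd40lg at -0.44 and the tested dendritic cell markers, at -0.53 to 0.04, were not called either. The macrophage marker Lyz2 was at 0.40 TPM with AOAH and 1.83 TPM with PC. It passed the filter of 1 TPM only through the PC libraries, so its difference is not a test. The part of these markers was not tested. Every called gene had the same sign in all 3 same-batch pairs, which was fixed by groups that did not overlap in all called genes but Ctsb. Of the lower genes, 5 had been called lower with AOAH and higher with PC against vehicle, namely Ctsd, Ctss, Laptm5, Gabarap and Map1lc3b. Their differences here were -0.43, -0.57, -0.52, -0.37 and -0.46, with adjusted p of 2.7e-05, 7.54e-05, 1.3e-05, 6.24e-05 and 0.00135 (limma). The same AOAH and PC libraries had given the calls that picked these 5 genes, so these values are not a further test of them. Another 5, Ctsa, Psap, Lipa, Mcoln1 and Ulk1, had been called lower with AOAH alone, and their differences between the treatments were -0.43, -0.25, -0.34, -0.67 and -0.39. Map1lc3a had the largest difference of all, with 1.77 ± 0.334 TPM in AOAH libraries and 4.50 ± 0.129 TPM in PC libraries (SD, n = 4 and 3), or -0.996 ± 0.109 (adjusted p = 0.000207, limma).

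The remaining 4 lower genes had not passed against vehicle in either treatment. Gabarapl2 had 37.1, 35.3, 36.3 and 35.6 TPM with AOAH and 43.1, 42.1 and 41.9 TPM with PC. Nbr1 had 12.9, 12.5, 11.9 and 11.3 TPM with AOAH, against 15.7, 16.2 and 15.1 TPM with PC, and Atg12, which is joined to Atg5, had 6.53, 6.60, 7.30 and 6.68 TPM with AOAH and 8.80, 8.94 and 8.70 TPM with PC. In these 3 genes no AOAH library reached the lowest PC library, and the log2 differences were -0.23, -0.34 and -0.34 (adjusted p = 0.00117, 0.00212 and 0.00244, limma). Atg14, at 2.60 ± 0.360 TPM with AOAH and 3.90 ± 0.603 TPM with PC, differed by -0.44 (adjusted p = 0.0166, limma), but missed the threshold under a batch block (adjusted p = 0.0853) and when PC library 2 was left out (adjusted p = 0.0618). Higher with AOAH were Ctsz at 0.25, Ctsc at 0.20, Grn at 0.39, Hexa at 0.23, Gaa at 0.21 and Ctsb at 0.23 (adjusted p = 0.000249, 0.00145, 0.00789, 0.00951, 0.00818 and 0.0396, limma). Ctsb missed the threshold when AOAH library 1, 3 or 4 or PC library 1 or 2 was left out (adjusted p between 0.0646 and 0.127), without a filter (0.0943) and after quantile normalization (0.0528). Gaa, for example, had 26.5, 23.7, 25.3 and 25.3 TPM with AOAH and 21.6, 21.5 and 22.0 TPM with PC, with no overlap. The other 16 tested genes, among them Lamp1, Lamp2, Tfeb, Becn1, Atg5, Atg7 and Atg16l1, were called in none of the 3 comparisons. Of these, Gabarapl1 passed between the treatments without AOAH library 1, at 0.28 (adjusted p = 0.00186, limma), and Glb1 did so without PC library 3 (adjusted p = 0.0384). Tpp1 and Atg7 passed without AOAH library 3 (adjusted p = 0.0495 and 0.0499, limma).

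Another 153 genes of the same organelles, in 6 lists, were read from the same fits, and 145 of them were tested. With AOAH 10 of these were higher (6.9%) and 24 lower (16.6%), with PC 21 were higher (14.5%) and 4 lower (2.76%), and between AOAH and PC 10 were higher (6.9%) and 50 lower (34.5%). Of all genes, 13.1% were higher and 12.1% lower with AOAH, 8.27% and 11.2% with PC, and 24.3% and 21.5% between AOAH and PC. In either direction the share of the 145 genes called was below that of all genes in each comparison. For all genes it was 25.2%, 19.5% and 45.8% in turn. The number of calls therefore does not set the 145 genes apart. These shares of all genes are also the background for the counts per list below. The PC counts were less settled: the higher genes numbered 13 without a filter and 17, 13, 11, 12, 16 and 13 without PC libraries 1 to 3 and vehicle libraries 1 to 3 in turn, and the lower genes 1 to 6.

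In the list of autophagy receptors, with 13 tested, 2 genes rose and 4 fell with AOAH. Calcoco1, a receptor for endoplasmic reticulum cargo, averaged 4.92 TPM in AOAH libraries against 8.68 TPM in vehicle libraries, a log2 difference of -0.72 ± 0.0852, and Ccpg1, another such receptor, fell by 0.47. Sqstm1, the p62 receptor that links ubiquitin to ATG8 proteins, averaged 83.2 TPM in AOAH libraries against 94.3 TPM in vehicle libraries, or -0.18 (adjusted p = 0.00569, limma). Of the 2 that rose, Bnip3, a mitochondrial receptor, averaged 14.8 TPM in AOAH libraries against 8.9 TPM in vehicle libraries. Its log2 difference was 0.70 (adjusted p = 0.00619, limma), and that of Phb2, a mitochondrial inner membrane protein, was 0.15. With PC 2 receptor genes rose and none fell. Sqstm1 averaged 147 TPM in PC libraries against 93.1 TPM in vehicle libraries, a difference of 0.65 ± 0.0470 (adjusted p = 0.000741, limma), and Calcoco1 rose by 0.43. Between the treatments Sqstm1 differed by -0.81, Calcoco1 by -1.13, Ccpg1 by -0.71 and Bnip3 by 1.10.

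Of 32 other core autophagy genes tested, 6 fell and none rose with AOAH. Tecpr1, which tethers autophagosomes to lysosomes, averaged 13.0 TPM in AOAH libraries against 25.7 TPM in vehicle libraries, or -0.94 ± 0.0792 (adjusted p = 8.16e-05, limma). The lipid transfer protein Atg2a, its partner Wdr45 and Atg13, a subunit of the Ulk1 complex, fell by 0.32, 0.33 and 0.18. With PC 5 of these genes rose and 1 fell. Tecpr1 averaged 33.2 TPM in PC libraries against 26.0 TPM in vehicle libraries, or 0.34, while Wdr45, the membrane fusion protein Vamp8 and the membrane remodelling protein Vmp1 rose by 0.41, 0.30 and 0.28. Between the treatments 10 were lower and none higher with AOAH, led by Tecpr1 at -1.30 and Wdr45 at -0.76.

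The 33 other hydrolases and cofactors showed 2 higher and 7 lower genes with AOAH. Smpdl3a, a phosphodiesterase related to acid sphingomyelinase, averaged 5.20 TPM in AOAH libraries against 10.2 TPM in vehicle libraries, or -0.86 ± 0.0712 (adjusted p = 7.83e-05, limma). The cholesterol carrier Npc2, the cathepsin Ctso and the heparan sulphate enzyme Sgsh fell by 0.29, 0.49 and 0.48. With PC 3 of these genes rose and 2 fell, among them the thioesterase Ppt2 at 0.42 and the sulphatases Arsb at -0.69 and Galns at -0.24. Between AOAH and PC 4 were higher and 12 lower, with Smpdl3a at -0.92, Ctso at -0.51 and Arsb at 0.56.

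Of 22 other membrane and sorting genes, 1 was higher and 2 lower with AOAH, and 3 higher and 1 lower with PC. Laptm4a, a relative of Laptm5, averaged 53.5 TPM in AOAH libraries against 62.0 TPM in vehicle libraries (-0.21), and 71.2 TPM in PC libraries against 61.6 TPM in vehicle libraries 1 to 3 (0.20). Scarb2, a lysosomal membrane sorting receptor, fell by 0.19 with AOAH and rose by 0.21 with PC. The small mannose phosphate receptor M6pr was higher with both, at 0.14 and 0.17, and the large one, Igf2r, was lower with PC at -0.39. Between the treatments 1 gene was higher and 6 lower with AOAH, with Laptm4a at -0.41, Scarb2 at -0.40, Igf2r at 0.31 and the transporter Spns1 at -0.35.

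The proton pump that acidifies the lysosome had 17 tested subunits and accessory genes. With AOAH 3 were higher and 2 lower, among them Atp6v0c, Atp6ap2 and Atp6v1a at 0.13, 0.17 and 0.20 and Atp6v1d at -0.27. With PC 5 were higher and none lower, led by Atp6v0c, Atp6v0b, Atp6v0d1 and Atp6v1g1 at 0.22, 0.24, 0.29 and 0.16. Between AOAH and PC 8 of the 17 were lower and none higher, with Atp6v0b at -0.31, Atp6v1g1 at -0.24, Atp6v0d1 at -0.36 and Atp6v0a2 at -0.27.

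In the list of MiT/TFE factors and the lysosomal control of mTORC1, with 28 tested, 2 genes were higher and 3 lower with AOAH. Sesn1 and Sesn3, sestrins that restrain mTORC1, and the transcription factor Foxo1 fell by 0.57, 0.31 and 0.34, and Lamtor3, a subunit of the lysosomal scaffold of mTORC1, was higher by 0.11. With PC 3 genes rose and none fell: the sestrin Sesn2 averaged 10.5 TPM in PC libraries against 6.08 TPM in vehicle libraries (0.70), the mTORC1 activator Rheb rose by 0.20, and Tfe3, the relative of Tfeb, averaged 17.8 TPM in PC libraries against 14.8 TPM in vehicle libraries (0.25; adjusted p = 0.0373, limma). Between the treatments 3 genes were higher and 8 lower with AOAH, including Sesn1 at -0.68, Sesn2 at -0.49, Foxo1 at -0.40 and the scaffold subunit Lamtor4 at -0.31.

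**Figure D4:**
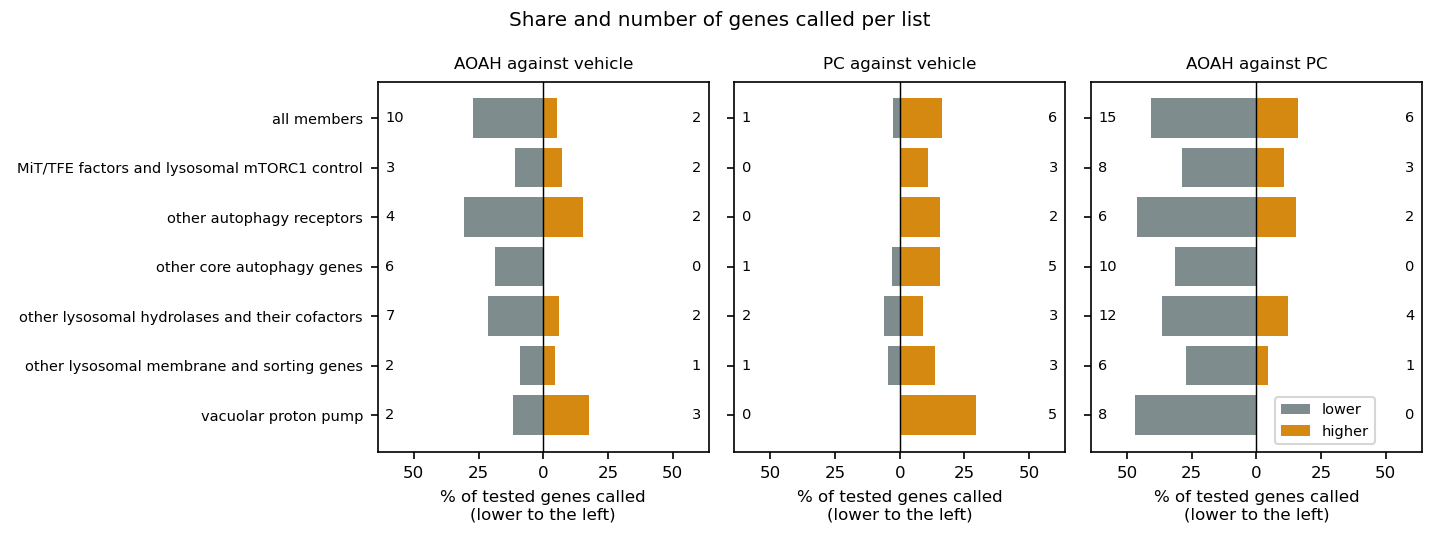
Share of tested genes called lower (left of 0) and higher (right of 0) with limma for the 39 listed genes and 6 further lists, in AOAH against vehicle, PC against vehicle and AOAH against PC; the numbers at the edges count the called genes. Lower calls outnumber higher calls in 6 of the 7 rows for AOAH against vehicle, and the proton pump has 5 higher and 0 lower calls with PC but 0 higher and 8 lower calls for AOAH against PC.

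The authors' deposited tables of the vehicle comparisons hold all 39 genes, of which Ctsh and Wipi1 have no adjusted p. At an adjusted p under 0.05 the authors' deposited table for AOAH called 11 of the other 37, 9 lower and 2 higher. Over all its 12492 genes with an adjusted p the share called was 17.1%, not split by direction. All 11 were also called here in the same direction, and Lipa was called here but not in the authors' deposited table (adjusted p = 0.0809). The authors' deposited table for PC called 1 of the same 37 genes, Laptm5 at a log2 fold change of 0.35. Over its 11109 genes with an adjusted p the share called was 13.4%. For Map1lc3a the authors' deposited table for PC gave a log2 fold change of 1.09 with an adjusted p of 0.0874. Grn, Ctsd, Ctss, Gabarap and Map1lc3b had adjusted p of 0.0729, 0.188, 0.267, 0.223 and 0.120 in the authors' deposited table for PC.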

How the data were processed

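RNA was measured in 11 libraries: 4 AOAH, 3 PC and 4 vehicle. ERCC RNA was added, poly(A) RNA was copied with primers that held unique molecular identifiers, and pairs of 150 bp were read on a NovaSeq, per the labels' protocols. The authors deposited gene levels from RSEM as log2 of TPM plus 1 (genome mm39, per the submitters' processing notes), which were turned back to TPM. The submitters' notes give no versions, and RSEM shares out reads that match several genes. DESeq2 tables by the authors, also deposited, give each gene's mean normalised signal, the log2 fold change and its error, the Wald score, and raw and adjusted p-values. A deposited receptor repertoire table was not used here.

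Tests used limma 3.58.1 in R 4.3.3 on log2(TPM + 1), with a mean-variance trend and robust estimation, two-sided, adjusted after Benjamini and Hochberg over all genes that averaged at least 1 TPM in the libraries compared, at a threshold of 0.05. AOAH was compared with vehicle 1 to 4, PC with vehicle 1 to 3 as the labels list them, and AOAH with PC. Fold changes on this scale understate changes of low genes. The main fit was tested on simulated data with known changes, made from genes that had passed the filter. The alternative settings were not tested in this way. Tables and figures were made with Python 3.11.15, pandas 2.3.3 and matplotlib 3.10.9.

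The 39 genes and the other lists were chosen with earlier results of these data known. Values per library are given for genes called in a vehicle comparison and for Tfeb, Lamp1, Lamp2 and Map1lc3b, and other lists by counts and their 4 called genes of lowest p, of which a few are not reported here. Values per library of a few others shown in full, Bnip3 in AOAH against vehicle, and the genes named among other changes, were chosen after their values were seen.

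Batch numbers in the labels pair libraries across groups, and batch 4 has no PC library. Deviations from group means correlated at a mean of -0.0033 in 10 same-batch pairs (-0.0794 to 0.118) and 0.0011 in 30 other pairs (-0.125 to 0.140). Alternatives were pseudocounts of 0.1 and 5, no filter, a filter of 5 TPM, unweighted TMM scaling, quantile normalization, 1 fit over all 11 libraries, array weights, batch as a block, vehicle 4 added for PC, and each library left out.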

Additional observations from a re-analysis of the deposited data

Results flagged for a closer look

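A single library stood apart from the other 3 of its group by Dixon's test in 6 of the 78 groups of 4 libraries examined, for 6 different genes. Chance flags about 1 in 20 such groups. Among AOAH libraries, Ctsz was at 100.89 TPM in library 2 and at 105.45 to 106.14 TPM in the others, still above every vehicle library. Smpd1 was at 9.9 TPM in AOAH library 1, against 10.74 to 10.83 TPM in the others. Gabarapl1 was at 43.45 TPM in AOAH library 1, against 54.74 to 56.35 TPM in the others, and its call against vehicle and PC turned on that library. Wipi1 was at 0.18 TPM in AOAH library 4, against 0.05 to 0.06 TPM in the others, too low for a test. Among vehicle libraries, Hexa was at 16.87 TPM in library 1 and at 19.12 to 19.53 TPM in the others. Gaa was at 22.31 TPM in vehicle library 2, against 23.21 to 23.35 TPM in the others. What set these libraries apart was not tested.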

How the results depend on the processing

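Of the genes called, 9 of 12 for AOAH against vehicle, 2 of 7 for PC against vehicle and 19 of 21 for AOAH against PC kept their call and direction under all of the 17, 16 and 16 alternatives that tested them (the filter of 5 TPM removed Atg14 and Map1lc3a). Another 3, 6 and 4 genes passed under some alternative. No difference that was called in any fit turned round. For PC, the number of members called was 2 and the number of all genes called 1339 without a filter on low values, where more genes were tested. With batch as a replicate block 3 members and 1572 genes were called for PC, 10 members and 2300 genes for AOAH against vehicle, and 20 members and 4246 genes for AOAH against PC. Leaving out each library in turn gave 2 to 7 members and 1274 to 2083 genes for PC against vehicle. The genes numbered 1405, 1387, 1274 and 1391 without PC library 2, PC library 3, vehicle library 1 and vehicle library 3. With vehicle library 4 added, 10 members were called for PC, 8 higher and 2 lower. The scalings left the numbers of members called higher and lower as they were, except that quantile normalization added 1 higher gene for PC. Since depth is unknown, no limit of detection could be set, and with 3 or 4 libraries per group small differences may go uncalled. The causes of the lost calls were not tested.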
